A study of Mus musculus with 26 samples.

Results

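The surface proteins by which long-term haematopoietic stem cells (HSCs) of the mouse are recognised and sorted were followed at the RNA level in 26 Smart-Seq2 libraries. Of 10 symbols named, 9 had a row among the 23416 genes of the table: Slamf1, Cd48, Cd38, Cd34, Procr, Ly6a, Eng, Esam and Tek. Cd150 had no row, and RefSeq lists it as a synonym of Slamf1. All 9 passed the filter on low values, 1 RPKM or more in 5 or more libraries, as did 12116 genes in all. RPKM divides a gene's reads by its length and by the size of the library, so levels can be set against each other between genes.

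The cells were stained and sorted from bone marrow as HSCs, and per the genotype labels they fell into 4 groups: the double mutant (n = 7), spelled JAK2V17F + Ezh2 loss in the labels and read as JAK2V617F with Ezh2 loss; JAK2V617F (n = 7); Ezh2 loss (n = 7); and control (n = 5), labelled CTR and WT. JAK2V617F is the activating kinase mutation of myeloproliferative neoplasms, and Ezh2 is the histone methyltransferase of Polycomb repressive complex 2. The sort markers, the promoter or driver of any recombinase, the zygosity, and the age, sex and strain of the mice are not stated in the sources at hand, nor is it said that each library is from its own animal, so the p-values cover only the spread between samples, which may be technical. A surface protein used in the sort would have been set by the gate, and which of the 9 were used cannot be read from the labels.

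Library titles came in 2 styles, with a serial number before the group code (number-first) or a number after it (number-last). Number-first titles were carried by 7 of 7 double mutant, 2 of 7 JAK2V617F, 2 of 7 Ezh2 loss and 4 of 5 control libraries. What the styles stand for is not given in the sources used here. The first principal component of all tested genes (16.3% of the variance) placed number-first libraries between 13.0 and 59.0 and number-last libraries between -69.7 and -24.8, so the style is a term of every test below unless a sentence says otherwise. Depth, read from the whole-read steps of the RPKM values, averaged 21.1 megareads in double mutant, 13.5 in JAK2V617F, 14.03 in Ezh2 loss and 17.5 in control libraries. All 14 genes of a stem cell identity list were tested and none was at 0 in any whole group. Ezh2 RNA averaged 17.4 ± 9.07 RPKM in double mutant, 27.1 ± 8.21 in JAK2V617F, 17.6 ± 9.0 in Ezh2 loss and 23.7 ± 10.4 in control libraries (SD), and no difference passed. The gene-level value cannot show the base change of JAK2V617F or a deleted exon of Ezh2.

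In the adult mouse, cells able to rebuild blood over the long term lie in the fraction with CD150 (Slamf1), Sca-1 (Ly6a), the endothelial protein C receptor EPCR (Procr), endoglin (Eng), ESAM and CD38, while CD48 and CD34 proteins are absent or low on them and appear as cells move towards multipotent progenitors. Endoglin, ESAM and the angiopoietin receptor Tie2 (Tek) are shared with endothelium. These are statements about protein on the cell surface, which RNA need not follow.

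Slamf1 and Cd48 are members of the same SLAM receptor family and neighbours on chromosome 1. In GRCm38 with the GENCODE M21 annotation, Cd48 lies at chr1:171682009-171705258 and Slamf1 at chr1:171767127-171801184, both on the plus strand, with 61.9 kb and 5 annotated genes between them. Cd38 lies on chromosome 5, at chr5:43868553-43912375 on the plus strand. The 250 bases before the RefSeq start (build GRCm38.p6, plus strand, 5′ to 3′) are shown for the SLAM pair, whose levels are set against each other below, and for Cd38, which had the smallest p of any member in a genotype comparison, at chr1:171681742-171681991 (Cd48), chr1:171766882-171767131 (Slamf1) and chr5:43868559-43868808 (Cd38). RefSeq and GENCODE start these genes at different bases, so the Cd38 window, taken before the RefSeq start, lies inside the gene as GENCODE M21 draws it, and the Slamf1 window reaches just past the GENCODE start. Capitals mark every match, on either strand, to 4 short cores. The STAT core was searched for as TTCNNNGAA and the core of GATA factors as AGATAA. The core shared by ETS factors was searched for as GGAAG, and that of RUNX factors as TGTGGT.
Cd48: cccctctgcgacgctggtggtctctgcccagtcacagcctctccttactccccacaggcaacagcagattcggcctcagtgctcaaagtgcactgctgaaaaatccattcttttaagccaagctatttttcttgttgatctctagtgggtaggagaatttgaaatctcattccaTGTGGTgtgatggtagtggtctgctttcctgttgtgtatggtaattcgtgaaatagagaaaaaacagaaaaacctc
Slamf1: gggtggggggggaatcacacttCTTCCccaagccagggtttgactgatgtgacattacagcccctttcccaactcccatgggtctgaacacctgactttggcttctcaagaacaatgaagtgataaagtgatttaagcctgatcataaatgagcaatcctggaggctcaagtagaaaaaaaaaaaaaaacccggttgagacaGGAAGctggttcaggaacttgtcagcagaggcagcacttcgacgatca
Cd38: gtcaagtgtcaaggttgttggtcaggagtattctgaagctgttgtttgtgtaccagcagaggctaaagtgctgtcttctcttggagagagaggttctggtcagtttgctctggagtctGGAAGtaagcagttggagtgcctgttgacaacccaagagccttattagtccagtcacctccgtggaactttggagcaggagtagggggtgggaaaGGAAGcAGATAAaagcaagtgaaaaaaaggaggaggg

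The Cd48 window held 1 RUNX core and no ETS core, the Slamf1 window 2 ETS cores, and the Cd38 window 2 ETS cores and 1 GATA core, the last ETS core and the GATA core being 1 base apart. Of 32851 mouse promoter windows of this length, 64.07% held the ETS core, 14.05% the RUNX core, 9.99% the GATA core and 7.02% the STAT core, so such matches are common. No STAT core, the kind of site that JAK2 signalling acts through, was found in the windows of the 7 members for which RefSeq gave one. A match is a run of letters and not a measured binding site.

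No member passed in any of the 6 genotype comparisons, at an adjusted p under 0.05 over all 12116 genes (limma, Benjamini-Hochberg). The share of all tested genes called was 0.00825% for the double mutant against control, 0% for JAK2V617F against control, 0% for Ezh2 loss against control, 0.033% for the double mutant against JAK2V617F, 0% for the double mutant against Ezh2 loss and 0% for the interaction. At an unadjusted p under 0.05 the shares were 6.17%, 4.14%, 6.07%, 8.06%, 7.84% and 6.09% in the same order, and the members below that limit were Slamf1 and Cd48 (2 of 9), Cd38 (1), Ly6a, Cd34 and Cd48 (3), Eng and Cd38 (2), Eng, Cd38 and Cd34 (3), and Cd38 and Cd34 (2). The F test of any difference among the 4 groups called 0.099% of genes and none of the 9 members. At an unadjusted p under 0.05 the F test held 8.01% of genes and 4 of the 9 members, Slamf1, Cd38, Cd34 and Cd48. Where the text below speaks of a difference between genotypes it gives values and the result of that test.

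The SLAM pair was present in control HSCs as Slamf1 without Cd48, and Cd48 RNA appeared in part of the libraries of each mutant group. Cd48, which marks progenitors when present, was listed at 0 in all 5 control libraries, and the counts recovered from the RPKM steps were 0 reads in each. At a floor of 3 reads a library, the limit that a count of 0 allows was 0.13 to 0.216 RPKM in those libraries, for counting error only.
In double mutant libraries 1 to 7 Cd48 stood at 7.82, 0, 11.4, 9.17, 31.2, 0 and 65.1 RPKM, on 154, 0, 268, 205, 821, 0 and 1372 reads. In JAK2V617F it was at 17.9 RPKM (287 reads) in replicate 2 and at 0 in the other 6. In Ezh2 loss it was at 33.1, 17.3 and 32.3 RPKM in replicates 2, 3 and 4, on 426, 282 and 918 reads, and at 0 in the other 4. Cd48 was therefore read in 5 of 7 double mutant, 1 of 7 JAK2V617F, 3 of 7 Ezh2 loss and 0 of 5 control libraries, and within each mutant group each library had either at least 154 reads or none.

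The mean Cd48 level of the 7 double mutant libraries was 82.6 times the highest control floor, and that of the 7 Ezh2 loss libraries 54.8 times. Without double mutant replicate 7, the highest of its group, the first ratio was 46.1. That floor allows for counting error only, so these ratios do not bound the Cd48 RNA of the control cells. The means also rest on part of the libraries, with medians of 9.17 RPKM in the double mutant and 0 in Ezh2 loss. On the log2(RPKM + 1) scale the fitted difference from control was 2.81 in the double mutant (SE 1.06, adjusted p = 0.683, limma), 2.60 in Ezh2 loss (SE 1.15, adjusted p = 0.802) and 1.16 in JAK2V617F (SE 1.15, adjusted p = 0.999), so the spread within the groups was too wide for any to pass. Among number-first libraries alone Cd48 was read in 5 of 7 double mutant, 0 of 2 JAK2V617F, 2 of 2 Ezh2 loss and 0 of 4 control libraries, and the Ezh2 loss difference from control was 4.63 (adjusted p = 0.368) on the same scale. Without JAK2V617F replicate 2 the fitted JAK2V617F difference was 0.68, with both groups then at 0 in every library. Of 2968 genes that had a read somewhere and none in the 5 control libraries, 0.505% were above 0 in at least 5 of 7 double mutant libraries, 4.31% in at least 3 of 7 Ezh2 loss libraries and 36.8% in at least 1 of 7 JAK2V617F libraries. Double mutant libraries were also the deepest on average, and the deepest of them, replicate 6 at 29.2 megareads, had no Cd48 reads. The part of depth in these counts was not tested.

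Neutrophil transcripts were high in part of the libraries with Cd48 reads and in part of those without. The mean log2(RPKM + 1) of 6 neutrophil genes (Camp, Ngp, Ltf, Lcn2, Mmp8 and Retnlg) was 7.94, 9.16 and 2.20 in double mutant replicates 3, 4 and 7, above the highest control library at 1.71, and all 3 had Cd48 reads. It was 1.69 and 0.375 in double mutant replicates 1 and 5, which also had Cd48 reads, and 0.388 and 0.546 in replicates 2 and 6, which had none. In Ezh2 loss all 7 libraries lay above the highest control, between 2.04 and 7.67. Those with Cd48 reads, replicates 2, 3 and 4, were at 3.52, 3.26 and 6.39. Those without, replicates 1, 5, 6 and 7, were at 6.69, 2.04, 7.67 and 7.18. In JAK2V617F replicate 2, with Cd48 reads, was at 1.14, and replicate 3, without them, was the highest of its group at 7.23. Leaving out the 3 double mutant libraries, chosen after the data were seen, took the Cd48 difference from control to 1.82 (adjusted p = 0.994), and with the neutrophil level as a covariate it was 2.92 (adjusted p = 0.806). Whether other cells in the sort supplied the Cd48 RNA was not tested.

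Slamf1, which encodes CD150, the receptor whose presence with absence of CD48 defines the SLAM stem cell gate, averaged lower in every mutant group than in control. Its lowest, median and highest levels were 8.13, 26.4 and 52.8 RPKM in double mutant, 15.7, 38.7 and 64.2 in JAK2V617F and 7.32, 26.2 and 34.3 in Ezh2 loss libraries, and the 5 control libraries had 48.4, 33.7, 29.4, 81.7 and 54.5. The means were 30.6 ± 15.2 in double mutant, 40.1 ± 17.04 in JAK2V617F, 22.2 ± 9.64 in Ezh2 loss and 49.6 ± 20.7 RPKM in control (SD). Below the lowest control library lay 4 of 7 double mutant, 2 of 7 JAK2V617F and 6 of 7 Ezh2 loss libraries, and all groups overlapped control. The fitted log2 difference from control was -0.87 in the double mutant (SE 0.41, adjusted p = 0.783, limma), -0.05 in JAK2V617F (SE 0.44, adjusted p = 0.999) and -0.89 in Ezh2 loss (SE 0.44, adjusted p = 0.82). The JAK2V617F value turned to 0.22 among number-first libraries, where the Ezh2 loss value was -0.50, and without control replicate 5 the Ezh2 loss value was -0.56. In bulk libraries fewer cells of a type and less RNA per cell cannot be told apart, for this and every other member.

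**Figure D1:**
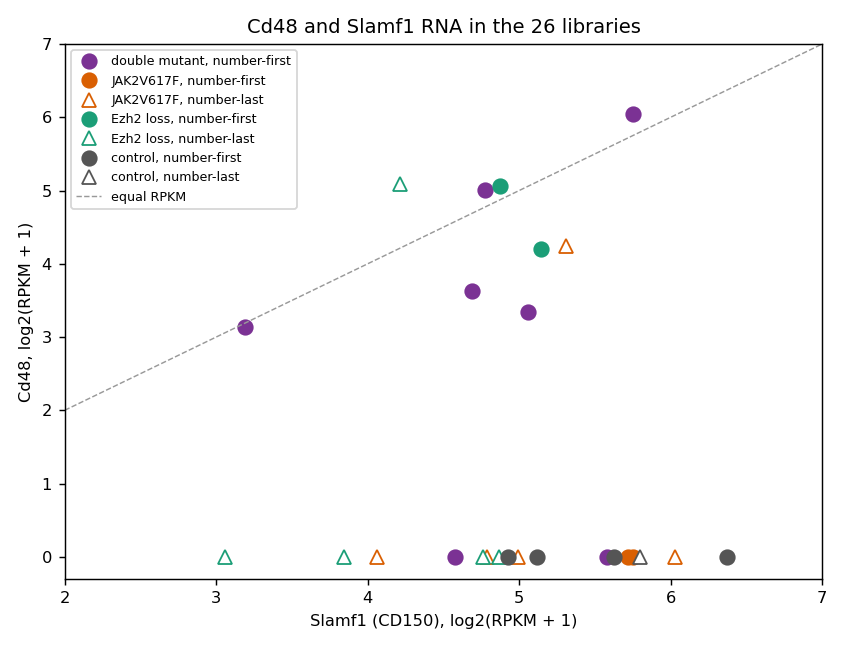
Cd48 against Slamf1 RNA, both as log2(RPKM + 1), with 1 point per library, colour for genotype, filled circles for number-first and open triangles for number-last titles, and a dashed line of equal RPKM. All 5 control libraries sit at 0 on the Cd48 axis, while 5 of 7 double mutant, 1 of 7 JAK2V617F and 3 of 7 Ezh2 loss libraries sit above it.

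The pair can be read as a distance. Slamf1 minus Cd48 on the log2(RPKM + 1) scale had a median of 1.06 in double mutant (range -0.30 to 5.58), 4.99 in JAK2V617F (1.07 to 6.03), 3.06 in Ezh2 loss (-0.88 to 4.87) and 5.63 in control libraries (4.93 to 6.37). Slamf1 exceeded Cd48 in 5 of 7 double mutant, 7 of 7 JAK2V617F, 5 of 7 Ezh2 loss and 5 of 5 control libraries. In the plot of Cd48 against Slamf1, the libraries with Cd48 reads had Slamf1 levels from 8.13 to 52.8 RPKM, with double mutant replicate 7 having both the highest Cd48 and the highest Slamf1 level of its group.

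Cd38 and Cd34 mark opposite sides of the stem cell gate in the adult mouse. Cd38, a surface enzyme that consumes NAD and is kept on mouse long-term HSCs, was lowest in the double mutant and highest in JAK2V617F. Its lowest, median and highest levels were 0.639, 10.4 and 15.6 RPKM in double mutant, 24.8, 28.3 and 67.8 in JAK2V617F and 5.46, 18.3 and 24.97 in Ezh2 loss libraries, and the 5 control libraries had 14.3, 52.3, 10.4, 10.4 and 2.14. Every double mutant library lay below every JAK2V617F library, as was the case for 0.281% of the genes tested, while control spanned nearly the whole range.

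The means of Cd38 were 9.50 ± 5.23 in double mutant, 37.4 ± 16.6 in JAK2V617F, 17.2 ± 5.98 in Ezh2 loss and 17.9 ± 19.7 RPKM in control libraries (SD). The double mutant differed from JAK2V617F by -2.34 on the log2 scale (SE 0.61, unadjusted p = 0.00064, adjusted p = 0.179, limma), the smallest p of any member in a genotype comparison. Without the title style term the difference was -2.05 and passed (adjusted p = 0.0273), and among number-first libraries, with 7 double mutant and 2 JAK2V617F libraries, it was -1.59 (adjusted p = 0.753). JAK2V617F differed from control by 1.70 (SE 0.60, adjusted p = 0.999) and the double mutant from control by -0.64 (SE 0.56, adjusted p = 0.958). The interaction, which takes both single mutant levels from the double mutant level and adds control, was -2.97 for Cd38 (SE 0.96, adjusted p = 0.74). Control replicate 5, the only number-last control, had the lowest Cd38 of its group, and without it the Cd38 difference from control was -1.07 in the double mutant and 0.85 in JAK2V617F, the interaction was -1.70, and the Ezh2 loss difference turned from 0.62 to -0.22. Among number-first libraries the JAK2V617F difference was 0.52. The double mutant difference from control was -0.11 without control replicate 2 and -0.24 without double mutant replicate 1. Cd38 transcripts share stretches of 105 to 120 bases, at up to 93.0% identity, with those of 6 other genes, among them Ahrr, Ankrd44, Sod2 and Tet1.

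Cd34 encodes a sialomucin that is low on adult mouse long-term HSCs and rises on progenitors. It averaged 54.4 ± 19.6 RPKM in double mutant, 75.3 ± 31.5 in JAK2V617F, 43.5 ± 20.6 in Ezh2 loss and 59.4 ± 31.2 in control libraries (SD). The lowest, median and highest levels were 32.5, 52.5 and 95.2 RPKM in double mutant, 36.7, 74.1 and 135 in JAK2V617F and 14.6, 42.8 and 71.0 in Ezh2 loss libraries, with 33.3, 72.1, 46.1, 37.5 and 108 in control. The groups overlapped over all libraries. Among number-first libraries Ezh2 loss rested on 2 values, 14.6 and 26.5 RPKM. Cd34 had the smallest p of the members in the F test among the 4 groups (unadjusted p = 0.00407, adjusted p = 0.37, limma). Ezh2 loss differed from control by -0.98 on the log2 scale (SE 0.32, adjusted p = 0.665, limma), and the double mutant from Ezh2 loss by 1.13 (SE 0.32, adjusted p = 0.363). Without the style term these values were -0.46 and 0.40, and among number-first libraries they were -1.16 and 1.35. Cd34 exons share 148 bases with the antisense gene Gm16897, which has its own row in the table, and whether the counting used strand is not given in the sources used here.

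**Figure D2:**
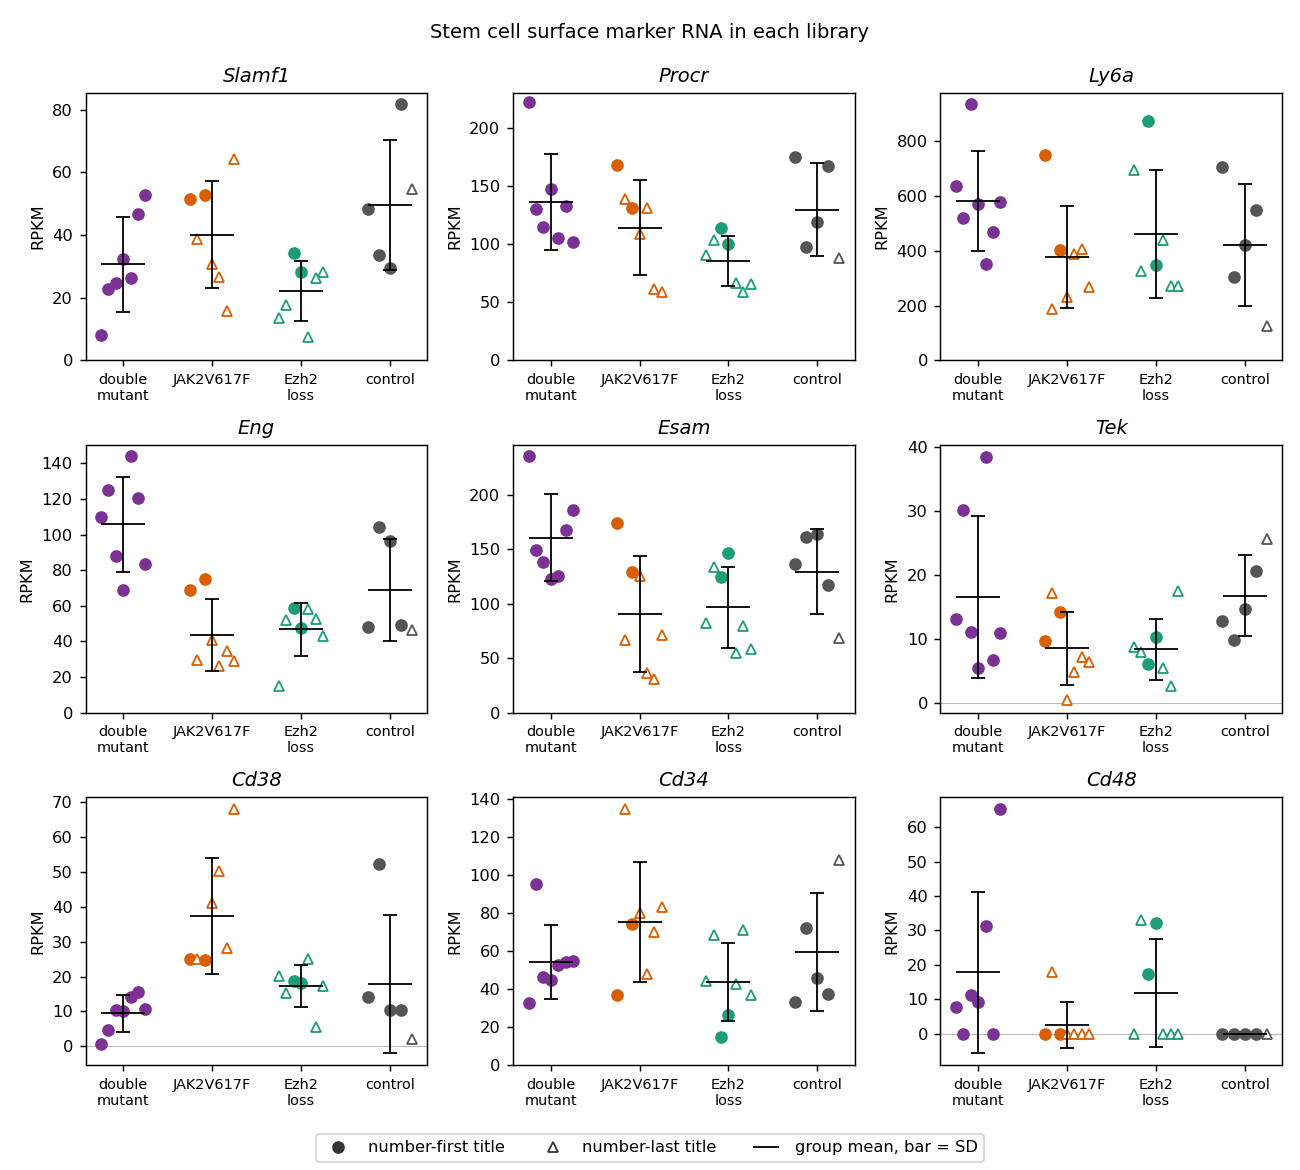
RPKM of each of the 9 surface markers in every library, on linear axes that differ between genes, with 1 point per library (filled for number-first, open for number-last titles), a line at the group mean and a bar of 1 SD. Cd38 runs from 0.639 to 15.6 RPKM in double mutant libraries, below the JAK2V617F range of 24.8 to 67.8, and Cd48 is at 0 in every control library.

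Procr and Ly6a, the genes of EPCR and Sca-1, stayed high in every group. Procr binds protein C and is among the sharpest surface marks of mouse long-term HSCs. It averaged 137 ± 41.1 RPKM in double mutant, 114 ± 40.8 in JAK2V617F, 85.7 ± 21.7 in Ezh2 loss and 130 ± 40.0 in control libraries (SD), with no library under 58.9. The fitted differences from control were -0.04 in the double mutant (SE 0.24), 0.08 in JAK2V617F (SE 0.26) and -0.28 in Ezh2 loss (SE 0.26), the smallest adjusted p being 0.939 (limma). Without the style term the signs for the double mutant and JAK2V617F turned, to 0.08 and -0.22.

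Ly6a, a GPI-anchored protein of the Ly6 family found on stem cells and progenitors alike, was the most abundant of the 9 in 26 of 26 libraries. It averaged 581 ± 182 RPKM in double mutant, 376 ± 186 in JAK2V617F, 461 ± 234 in Ezh2 loss and 421 ± 222 in control libraries (SD). The lowest, median and highest levels were 351, 572 and 937 in double mutant, 188, 388 and 749 in JAK2V617F and 271, 346 and 875 in Ezh2 loss, with 705, 305, 419, 549 and 126 in control. The differences from control were 0.42 in the double mutant (SE 0.29, adjusted p = 0.917, limma), 0.43 in JAK2V617F (SE 0.32, adjusted p = 0.999), which turned to -0.08 without the style term, and 0.72 in Ezh2 loss (SE 0.32, adjusted p = 0.802), which was 0.21 without the style term. Without control replicate 5 these 3 differences were 0.24, 0.077 and 0.36. Ly6a transcripts share 188 bases with Ly6c1 at 92.0% identity and with Ly6c2 at 91.0%, so reads from that stretch could be divided among them.

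Of the 3 receptors shared with endothelium, Eng had its highest levels in the double mutant. Endoglin is an accessory receptor of the TGF-beta and BMP family. Its lowest, median and highest levels were 68.6, 110 and 144 RPKM in double mutant, 26.4, 34.6 and 75.3 in JAK2V617F and 15.2, 52.2 and 58.9 in Ezh2 loss libraries, and the control libraries had 47.9, 104, 96.4, 49.5 and 46.5. All double mutant libraries lay above all Ezh2 loss libraries, as was the case for 0.413% of the genes tested, and 4 of 7 lay above the highest control library.

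Eng averaged 106 ± 26.6 RPKM in double mutant, 43.5 ± 20.2 in JAK2V617F, 46.8 ± 15.01 in Ezh2 loss and 68.8 ± 28.8 in control libraries (SD). With the title style in the fit the double mutant differed from JAK2V617F by 0.81 (SE 0.32, adjusted p = 0.47, limma), from Ezh2 loss by 0.70 (SE 0.32, adjusted p = 0.618) and from control by 0.52 (SE 0.29, adjusted p = 0.876). Without the style term the first 2 were 1.34 (adjusted p = 0.0187) and 1.22 (adjusted p = 0.0478), and the interaction was 1.89 (adjusted p = 0.0246) in place of 0.99 (adjusted p = 0.826), so these 3 differences passed only where title style was left out, of the alternatives run. The F test of any difference among the 4 groups also passed for Eng without the style term (adjusted p = 0.0472). Among number-first libraries the double mutant averaged 106 ± 26.6 RPKM (n = 7), JAK2V617F 72.1 ± 4.52 (n = 2), Ezh2 loss 53.3 ± 7.96 (n = 2) and control 74.4 ± 29.9 (n = 4), and no Eng difference passed. Eng exons share 61 bases with Fpgs on the opposite strand.

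Esam, a junctional adhesion molecule of HSCs and endothelium, averaged 161 ± 39.9 RPKM in double mutant, 90.8 ± 53.3 in JAK2V617F, 97.0 ± 37.2 in Ezh2 loss and 129 ± 39.2 in control libraries (SD). With title style in the fit its differences from control were 0.13, -0.13 and 0.11 (SE 0.27, 0.29 and 0.29), and the largest genotype difference among its 5 pairs was 0.26, for the double mutant against JAK2V617F (SE 0.30, adjusted p = 0.891, limma). Ezh2 loss against control turned to -0.44 without the style term. Among number-first libraries alone Esam averaged 161 ± 39.9 in double mutant, 152 ± 32.1 in JAK2V617F, 135 ± 15.5 in Ezh2 loss and 145 ± 22.01 RPKM in control, so the groups lay close together within the style.

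Tek had the lowest mean of the members after Cd48 in control. Tie2, its product, is the angiopoietin receptor linked to quiescence of HSCs in the marrow niche. Its lowest, median and highest levels were 5.41, 11.1 and 38.3 RPKM in double mutant, 0.389, 7.14 and 17.2 in JAK2V617F and 2.59, 7.89 and 17.5 in Ezh2 loss libraries, and the control libraries had 12.9, 9.88, 14.7, 20.5 and 25.6. Below the lowest control library lay 2 of 7 double mutant, 5 of 7 JAK2V617F and 5 of 7 Ezh2 loss libraries. The means were 16.5 ± 12.6 in double mutant, 8.53 ± 5.70 in JAK2V617F, 8.38 ± 4.73 in Ezh2 loss and 16.7 ± 6.32 RPKM in control (SD). The differences from control were -0.29 in the double mutant (SE 0.55, adjusted p = 0.986, limma), -1.01 in JAK2V617F (SE 0.60, adjusted p = 0.999) and -0.86 in Ezh2 loss (SE 0.60, adjusted p = 0.908). Without control replicate 5, the highest of its group, the JAK2V617F value was -0.57 and the Ezh2 loss value -0.41, and among number-first libraries the JAK2V617F value was -0.23.

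**Figure D3:**
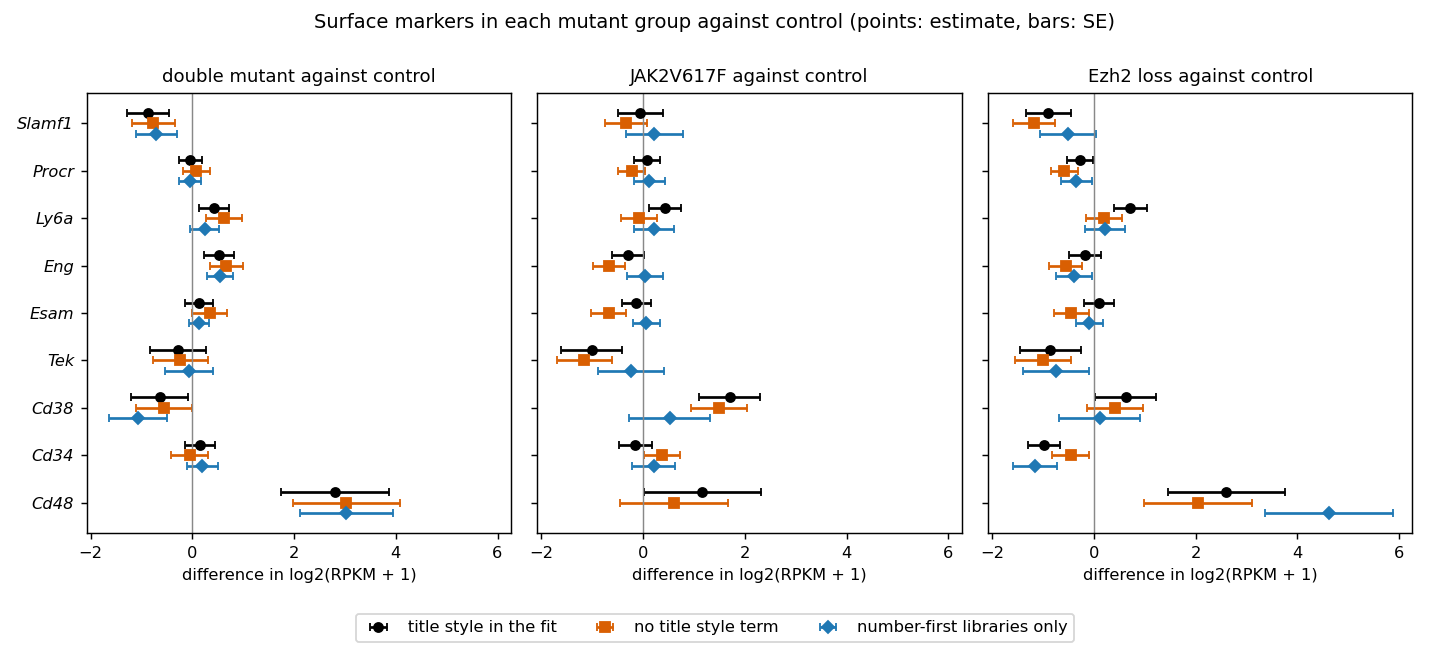
Difference of each mutant group from control for the 9 surface markers, in log2(RPKM + 1) with bars of 1 SE, from the fit with title style (black circles), without it (orange squares) and from number-first libraries alone (blue diamonds). None of these differences from control passed, and Cd48 stands farthest from 0, at 2.81 in the double mutant and 2.60 in Ezh2 loss with title style in the fit.

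More of these genes passed between title styles than between genotypes. Of the 9 members 3 passed between styles, where 11% of all tested genes passed, 7.68% higher and 3.3% lower in number-first libraries. The median difference of all tested genes was 0.17 and that of the members 0.59, with 8 of 9 higher in number-first libraries. Esam differed by 1.06 (SE 0.24, adjusted p = 0.00256, limma) and averaged 152 ± 31.1 RPKM in the 15 number-first and 73.5 ± 32.0 in the 11 number-last libraries. Ly6a differed by 1.0 (SE 0.26, adjusted p = 0.00908), at 561 ± 191 and 329 ± 153 RPKM in number-first and number-last libraries, and without control replicate 5 by 0.75 (adjusted p = 0.103).

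Cd34 went the other way between styles, by -1.02 (SE 0.26, adjusted p = 0.0081, limma), at 48.1 ± 20.5 RPKM in number-first and 71.7 ± 29.9 in number-last libraries. Eng differed by 0.73 (adjusted p = 0.0641) and Procr by 0.59 (adjusted p = 0.0666), which did not pass. Leaving out 1 library brought Eng to pass without control replicate 1 or Ezh2 loss replicate 5 or 6 (adjusted p 0.0413 to 0.0490), and Procr without JAK2V617F replicate 2 or 5 or Ezh2 loss replicate 2 (0.0413 to 0.0483). Entered first, title style accounted for 62.1% of the variance of Esam between libraries, 54.4% of that of Eng, 40.3% of that of Procr and 36.1% of that of Ly6a on the log2 scale. Entered after style, genotype added 37.0% for Cd38, 35.9% for Cd34, 28.3% for Slamf1 and 25.1% for Cd48, against 2.04% for Esam. Style and genotype overlap, so variance common to both was credited to style by this order. All double mutant libraries were number-first, so for that group a genotype difference is set only against the number-first libraries of the others and the style estimate taken from them.

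**Figure D4:**
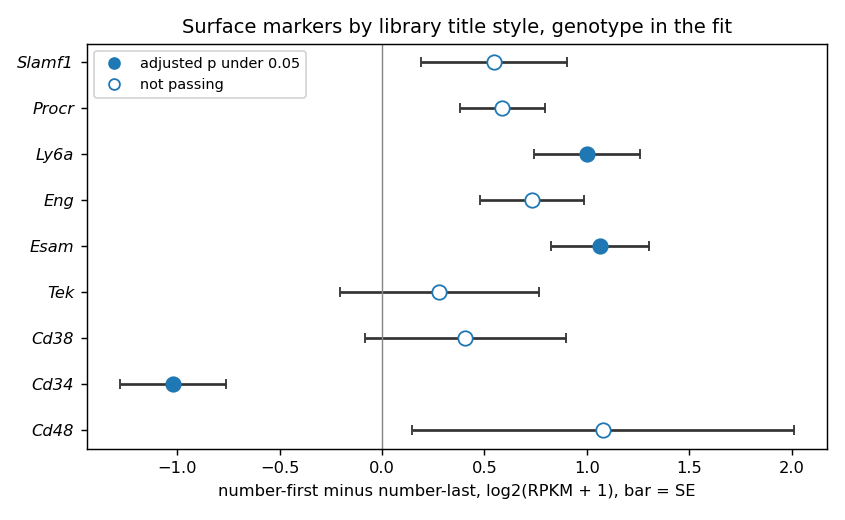
Difference between number-first and number-last libraries for each of the 9 surface markers, in log2(RPKM + 1) with bars of 1 SE and genotype in the fit, with filled points where the adjusted p was under 0.05. Esam (1.06) and Ly6a (1.0) lie above 0, Cd34 (-1.02) lies below 0, and the other 6 did not pass.

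The order of the 9 genes by level, which RPKM allows since it is per length, was largely shared. By mean RPKM Ly6a came first and Esam or Procr next in every group, followed by Eng and Cd34 and then by Slamf1. At the low end Cd38, Tek and Cd48 closed the order in control and JAK2V617F, with Cd48 last. In Ezh2 loss Tek was last and in the double mutant Cd38 was, although by median RPKM Cd48 was last in all 4 groups. Cd48 was the lowest of the 9 in 2 of 7 double mutant, 6 of 7 JAK2V617F, 4 of 7 Ezh2 loss and 5 of 5 control libraries. Cd34 exceeded Slamf1 in 7 of 7 double mutant, 6 of 7 JAK2V617F, 5 of 7 Ezh2 loss and 3 of 5 control libraries. The neighbours Esam and Procr at the top, and Eng and Cd34 in the middle, lay within each other's SD in control.

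Other surface genes of stem cells, 24 listed and 23 tested, had median differences from control near those of all tested genes. None passed in any genotype comparison, and their median difference from control was 0.04 in the double mutant (12 higher, 11 lower), 0.03 in JAK2V617F (12 higher, 11 lower) and 0.02 in Ezh2 loss (13 higher, 10 lower), where the medians of all genes were -0.01, -0.02 and -0.03. Between styles Gpr56, an adhesion receptor of HSCs, was higher in number-first libraries by 1.27 (adjusted p = 2.75e-05, limma), and Cd81, a tetraspanin, was lower by -0.54 (adjusted p = 0.00994).

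Thy1, a GPI-anchored protein present at a low level on mouse HSCs, was at 0.139 ± 0.238 RPKM in double mutant, 0.447 ± 0.711 in JAK2V617F, 0.464 ± 0.795 in Ezh2 loss and 3.55 ± 3.75 in control libraries (SD), and did not pass (smallest adjusted p = 0.622, double mutant against control). It was among the 3 genes of the list with the smallest p in the F test, with Cd27, a TNF receptor family member, and Cxcr4, the CXCL12 receptor that holds HSCs in the marrow. Cd27 averaged 116 ± 20.9 RPKM in double mutant, 165 ± 57.0 in JAK2V617F, 103 ± 20.4 in Ezh2 loss and 113 ± 20.9 in control (SD). Cxcr4 averaged 7.67 ± 4.18 RPKM in double mutant, 8.20 ± 5.87 in JAK2V617F, 18.8 ± 8.71 in Ezh2 loss and 14.4 ± 7.81 in control (SD), and none of these differences passed.

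Surface genes of progenitors, 14 listed and 11 tested, lay mostly above control in the mutant groups that carry Ezh2 loss, though none passed in any comparison. Against control 10 were higher and 1 lower in the double mutant (median difference 1.65), 6 were higher and 5 lower in JAK2V617F (median 0.17), and 10 were higher and 1 lower in Ezh2 loss (median 0.87). Of all tested genes 49.5%, 47.9% and 47.9% were higher in the same order. A gene under 1 RPKM in every control library could pass the filter only through mutant libraries. Counts of a list low in control, where 3 of the 14 genes were at 0 throughout, therefore lean to higher by the rule. They are descriptions, and the part of the filter in them was not tested. The summed RPKM of the list was 104 to 1691 in double mutant, 73.3 to 255 in JAK2V617F, 94.8 to 871 in Ezh2 loss and 52.5 to 97.8 in control libraries. It exceeded the highest control library in 7 of 7 double mutant, 3 of 7 JAK2V617F and 6 of 7 Ezh2 loss libraries. In the double mutant the sums of 501, 688 and 1691 RPKM were those of replicates 3, 4 and 7, and the other 4 lay between 104 and 188. Replicates 3, 4 and 7 had the highest mean log2 level of the 6 neutrophil genes. By summed RPKM of 8 neutrophil genes, however, they were at 26703, 52098 and 212, with the highest control library at 388. Replicate 1 was at 604 by that sum, with a progenitor sum of 110. The JAK2V617F sum of 255 was that of replicate 3, which also had the highest neutrophil sum of its group, and the other 6 reached at most 112. In Ezh2 loss the progenitor sum was highest in replicate 4, at 871, with a neutrophil sum of 9413. Replicates 1, 6 and 7, with neutrophil sums of 30049, 38181 and 26813, had progenitor sums of 231, 279 and 413.

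Among the progenitor genes with the smallest p in the F test were Csf3r, the receptor of G-CSF, and Cd52, a GPI-anchored leukocyte antigen, both of which mature myeloid cells can also carry. Csf3r averaged 19.1 ± 6.77 RPKM in double mutant, 7.38 ± 4.87 in JAK2V617F, 12.0 ± 4.73 in Ezh2 loss and 7.59 ± 3.18 in control (SD), and the double mutant stood 1.24 from control (SE 0.44, adjusted p = 0.622, limma). Cd52 had a median of 44.3 RPKM in double mutant, 3.78 in JAK2V617F, 99.5 in Ezh2 loss and 0.10 in control libraries. Flt3, chosen after its values were seen as the receptor by which multipotent progenitors are told from HSCs, averaged 8.46 ± 5.73 RPKM in double mutant, 1.78 ± 2.27 in JAK2V617F, 2.998 ± 4.79 in Ezh2 loss and 1.14 ± 0.85 in control (SD), and its double mutant level stood 1.96 from control (SE 0.66, adjusted p = 0.586).

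Some markers of other cells also differed between the groups. Retnlg of the neutrophil list (adjusted p = 0.0259, limma) and Beta-s of the erythroid list (adjusted p = 0.0246) were among the 12 genes that passed the F test among the 4 groups. Retnlg averaged 87.7 RPKM in double mutant, 1.13 in JAK2V617F, 142 in Ezh2 loss and 0 in control libraries, and Beta-s 12.1, 6.68, 1679 and 12.2 in the same order. The summed RPKM of 8 neutrophil genes was 43.2 to 52098 in double mutant, 72.9 to 17655 in JAK2V617F, 404 to 38181 in Ezh2 loss and 39.5 to 388 in control libraries, above the highest control in 3, 1 and 7 of 7 mutant libraries in that order, and 2 of the 8 genes were at 0 throughout control. Summed erythroid markers (8 genes in the table) had a median of 21.99 RPKM in double mutant, 17.1 in JAK2V617F, 1541 in Ezh2 loss and 31.4 in control libraries, and exceeded the highest control in 2, 1 and 6 of 7 mutant libraries. The sum of 10 endothelial markers, given here beside Eng, Esam and Tek, was 155 to 323 RPKM in double mutant, 124 to 290 in JAK2V617F, 162 to 271 in Ezh2 loss and 133 to 252 in control libraries, ranges that overlapped, with 4, 3, 2 and 3 of the 10 genes at 0 in whole groups. The part of these markers in the surface gene values was not tested beyond the neutrophil fits given above.

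Megakaryocyte, B cell, and T and NK cell markers, 5, 6 and 7 genes, had no member that passed in any comparison. Their summed levels exceeded the highest control in 1, 3 and 0 of 7 double mutant libraries, 2, 3 and 0 of 7 JAK2V617F libraries, and 2, 3 and 1 of 7 Ezh2 loss libraries, and 0, 5 and 4 of their genes were at 0 throughout control.

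Within groups the members varied largely apart from each other. After group means and title style were removed, Pearson correlations among the 36 pairs over 26 libraries ran from -0.58 (Ly6a and Cd34) to 0.39 (Eng and Cd34), and that of Slamf1 with Cd48 was 0.13. These are descriptions, since the points share library depth and the quality of each amplification.

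By the same residuals, and among 7894 tested genes with a mean of at least 5 RPKM, the genes most like Cd48 were Vmac (r = 0.74), Lgals1 (0.69) and Bcl2 (0.66), and those most like Slamf1 were Polr2i (0.66), Rqcd1 (0.65) and Zfp764 (0.64). Cd38 was most like Il17re (0.73), Trip4 (0.71) and Ppp1r15b (0.69), and Cd34 most like Hnrnpl (0.78), Scamp1 (0.78) and Dtnb (0.75). Procr was most like Alg12 (0.72), Rpl9 (0.65) and Ndufa10 (0.65), and Ly6a most like Emc2 (0.75), Gng5 (0.74) and B2m (0.74). Eng was most like Polr2a (0.84), Sh2b1 (0.84) and Zdhhc3 (0.81), Esam most like Farsa (0.80), Thoc5 (0.76) and Mars (0.74), and Tek most like Ctbp1 (0.76), Ppp1r14b (0.75) and Ppp6r1 (0.73). No member was among the 3 genes named for another, since members were passed over by the rule. Each value is among the largest of 7894 correlations over 26 libraries, and the level that chance reaches was not computed. Spearman rank correlations of the same pairs ran from 0.47 (Slamf1 and Rqcd1) to 0.82 (Cd34 and Hnrnpl).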

How the data were processed

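RNA of sorted bone marrow HSCs was profiled with Smart-Seq2, a full-length protocol for few cells, per the labels' protocols. The authors deposited 1 table of RPKM for 23416 genes in 26 libraries, with 0 columns left unmapped. The submitters' processing notes name the build mm10 (GRCm38) and the tools Subread 1.5.0, SAMtools 0.1.19 and STAR 2.4.2a, with no settings. The gene lengths and read totals behind the RPKM are not stated in the sources at hand.

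Log2(RPKM + 1) was modelled with limma 3.58.1 (R 4.3.3) over all 26 libraries, with 1 mean per genotype group, a title style term and eBayes with trend and robust. A fold change on this scale understates the change of low genes. The 12116 genes that reached 1 RPKM in 5 or more libraries were tested, and p-values were two-sided and adjusted by Benjamini-Hochberg over all of them. A gene passed at an adjusted p under 0.05. The fit was tested on simulated data. Errors are SD over libraries and SE of the fit.

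RPKM values of a gene lie on whole-read steps: 17043 of 17259 genes with a read (98.7%) came out whole within a tolerance of 0.01, all 9 members among them. A total on which 411 GENCODE M21 exon lengths fell, against 8 for the next, gave depths of 7.82 to 29.2 megareads. These reads describe depth and served no test.

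Positions and overlaps came from GENCODE M21, promoters from RefSeq, and similar transcripts from BLAST 2.17.0 (at least 90% identity over at least 100 bases). Named are all members, Ezh2 and Jak2, up to 4 genes of each surface list that passed (only between title styles) and, where none passed between genotypes, the 3 with the smallest F test p, of which 1 progenitor gene is not reported here, and the 3 genes most correlated with each member. Jak2 averaged 11.3 ± 7.93 RPKM in double mutant, 12.8 ± 5.71 in JAK2V617F, 17.8 ± 9.37 in Ezh2 loss and 16.2 ± 4.71 in control libraries (SD), and did not pass. The members and lists were chosen with earlier results of these data known.

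Alternatives were no title style term, number-first libraries alone, pseudocounts of 0.1 and 5, no low-value filter, median-ratio scaling, quantile normalization, array weights, a neutrophil covariate and leaving out each of the 26 libraries. Leaving out 3 double mutant libraries with neutrophil transcripts, and a replicate block on the numbers of the number-last titles, were added after the data were seen.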

Additional observations from a re-analysis of the deposited data

Results flagged for a closer look

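Each of the 9 surface markers was examined in each of the 4 groups for a library standing far from the rest of its group (Dixon's test, 95% critical values). The groups were taken over both title styles. Of 36 gene and group pairs 6 held such a library, where chance flags about 1 in 20 groups of normally distributed values. Whether RPKM, taken here without a log, has that shape was not tested, so the share is only a guide. It does not hold for Cd48, whose control values were all 0 and whose JAK2V617F values were 0 in 6 of 7 libraries. Within a title style, in sets of 4 or more libraries, 4 of the 6 stood apart again, while Eng in Ezh2 loss replicate 1 did not and Ly6a in JAK2V617F replicate 1 had too few libraries of its style. For Procr and Cd34 in the double mutant the set was the same 7 libraries, all number-first, so the outcome could not change. For Cd48 in JAK2V617F the set held 1 value above 0, which also fixed the outcome. Cd38 in control replicate 2 was the remaining one, among 4 number-first libraries.

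Procr was highest in double mutant replicate 1, at 222 RPKM, and Cd34 was highest in double mutant replicate 2, at 95.2 RPKM. Ly6a was highest in JAK2V617F replicate 1, at 749 RPKM, and Cd48 was read in JAK2V617F replicate 2 alone of its group, at 17.9 RPKM. Eng was lowest in Ezh2 loss replicate 1, at 15.2 RPKM. Cd38 was highest in control replicate 2, at 52.3 RPKM, against 2.14 to 14.3 RPKM in the other 4 control libraries.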

How the results depend on the processing

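With the title style in the fit, no member passed between genotypes under any alternative. Without it Eng and Cd38 passed, as given above, Eng in the F test too (0.0472). The double mutant differences from control for Cd48 and Slamf1 kept their sign in the 37 alternatives run, from 1.49 to 4.96 and from -1.15 to -0.61. Without the title style term the count of genes passing was 1 (JAK2V617F against control), 0 (double mutant against control), 274 (double mutant against JAK2V617F), 85 (double mutant against Ezh2 loss), 215 (interaction of JAK2V617F and Ezh2 loss), 87 (any difference among the 4 groups), and the direction turned for Procr -0.22 and Ly6a -0.081 and Cd34 0.37 (JAK2V617F against control), Esam -0.44 (Ezh2 loss against control), Procr 0.081 and Cd34 -0.053 (double mutant against control), Procr 0.30 and Ly6a 0.70 and Cd34 -0.43 (double mutant against JAK2V617F), Ly6a 0.42 (double mutant against Ezh2 loss), Ly6a 0.50 and Cd48 0.37 (interaction of JAK2V617F and Ezh2 loss). In number-first libraries alone the count of genes passing was 0 (double mutant against control), 8 (double mutant against JAK2V617F), 8 (double mutant against Ezh2 loss), 0 (any difference among the 4 groups), and the direction turned for Slamf1 0.22 and Eng 0.043 and Esam 0.064 and Cd34 0.20 (JAK2V617F against control), Esam -0.086 (Ezh2 loss against control), Ly6a 0.026 and Cd34 -0.0082 (double mutant against JAK2V617F), Slamf1 -0.20 and Ly6a 0.021 and Cd48 -1.60 (double mutant against Ezh2 loss), Slamf1 -0.43 (interaction of JAK2V617F and Ezh2 loss). With quantile normalization the count of genes passing was 2 (double mutant against control), and the direction turned for Procr 0.046 (double mutant against control), Ly6a 0.23 (double mutant against JAK2V617F), Slamf1 -0.044 (double mutant against Ezh2 loss), Slamf1 -0.0400 (interaction of JAK2V617F and Ezh2 loss). With array weights the count of genes passing was 6 (double mutant against control), 12 (double mutant against JAK2V617F), and the direction turned for Slamf1 0.0402 (JAK2V617F against control), Procr 0.0044 (double mutant against control), Ly6a 0.012 (double mutant against JAK2V617F), Slamf1 -0.012 and Cd48 -0.20 (double mutant against Ezh2 loss), Slamf1 -0.052 (interaction of JAK2V617F and Ezh2 loss). With the neutrophil covariate the count of genes passing was 0 (double mutant against control), 3 (double mutant against Ezh2 loss), and the direction turned for Eng 0.13 (Ezh2 loss against control), Esam -0.044 (double mutant against Ezh2 loss). Without the 3 double mutant libraries (added) the count of genes passing was 4 (Ezh2 loss against control), 0 (double mutant against control), 1 (double mutant against Ezh2 loss), 1 (interaction of JAK2V617F and Ezh2 loss), and the direction turned for Procr 0.067 and Tek 0.13 (double mutant against control), Slamf1 -0.25 and Cd48 -0.78 (double mutant against Ezh2 loss), Slamf1 -0.20 (interaction of JAK2V617F and Ezh2 loss). With no filter the count of genes passing was 2 (double mutant against control), 1 (double mutant against Ezh2 loss), 1 (interaction of JAK2V617F and Ezh2 loss), 4 (any difference among the 4 groups). With a pseudocount of 0.1 the count of genes passing was 1 (JAK2V617F against control). Over the 26 fits that each left out 1 library the count of genes passing was 0 to 1 (JAK2V617F against control), 0 to 1 (Ezh2 loss against control), 0 to 6 (double mutant against control), 3 to 8 (double mutant against JAK2V617F), 0 to 1 (double mutant against Ezh2 loss), 0 to 1 (interaction of JAK2V617F and Ezh2 loss), 4 to 15 (any difference among the 4 groups). Members that turned direction in at least 1 of them were Slamf1 -0.22 to 0.28 and Procr -0.023 to 0.16 (JAK2V617F against control), Cd38 -0.22 to 1.06 (Ezh2 loss against control), Procr -0.16 to 0.062 (double mutant against control), Ly6a -0.20 to 0.17 (double mutant against JAK2V617F), Slamf1 -0.15 to 0.29 and Esam -0.099 to 0.11 and Cd48 -0.30 to 1.09 (double mutant against Ezh2 loss), Slamf1 -0.43 to 0.34 and Esam -0.012 to 0.37 and Cd48 -1.69 to 0.24 (interaction of JAK2V617F and Ezh2 loss), Cd38 -0.19 to 0.61 (number-first against number-last titles). The causes of these shifts were not tested. Cd48 gave no value for JAK2V617F against control in number-first libraries alone, where both groups were at 0. The style difference of Ly6a lost its call without control replicate 5, and Eng's passed with the neutrophil covariate (0.79). Median-ratio scaling and a pseudocount of 5 turned no direction, changed no member's call and moved no count by over 1.5 times. Number-last titles of JAK2V617F and Ezh2 loss share 4 numbers, and the deviations of same-numbered libraries correlated at -0.085 to 0.028, with 1 of the 4 JAK2V617F libraries closest to its own number. With only 4 such pairs, these correlations cannot decide whether same-numbered libraries share more than the number. With that number as a replicate block beside title style (added) the count of genes passing was 0 (double mutant against control) and 5 (any difference among the 4 groups), no member passed between genotypes, and the direction turned for Slamf1 0.058 (JAK2V617F against control), Ly6a 0.089 (double mutant against JAK2V617F), Slamf1 -0.16 (double mutant against Ezh2 loss) and Slamf1 -0.22 (interaction of JAK2V617F and Ezh2 loss).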
